A study of Mus musculus with 12 samples.

Results

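Deletion of a single Rb1 copy in Sertoli cells was compared with wild type across the testis transcriptome of the mouse at 10 days of age. The comparison took in every array labelled as carrying the one-copy deletion (SC-Rb+/-, called HET below, n = 3, replicates 5 to 7) and every wild type array (WT, n = 5, replicates 8 to 12), which is 8 of the 12 arrays of the series. The other 4 arrays (SC-RbKO, called KO, replicates 1 to 4) come from testes in which both copies were targeted, and their values are given for Rb1 and for some of the other genes. Each array was hybridised with total RNA of whole testis. Per the labels' protocols, Amh-Cre males were mated to females whose Rb alleles were both floxed to obtain the deletions. The labels do not say whether WT animals carried the transgene or a floxed allele, and no label states that each RNA was prepared from its own mouse, so the p-values cover the spread among arrays, which may be technical. All 3 groups were sampled at the same age, and no treatment is named.

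The retinoblastoma protein holds E2F transcription factors, with their DP partners, in an inactive state at the promoters of genes for DNA replication. Phosphorylation by cyclin-dependent kinases releases E2F and lets the cell enter S phase, and CDK inhibitors such as p27 oppose that step. Sertoli cells are the somatic cells of the seminiferous tubule. They divide in the perinatal testis, stop around the time the blood-testis barrier forms, and then nurse the germ cells, whose first wave of meiosis is under way in the second week of life. The Amh promoter drives Cre selectively in Sertoli cells, so the other testicular cells are not targeted by the design, and they too contributed RNA to each sample. In bulk RNA of this kind, fewer cells of a type and less RNA per cell cannot be told apart.

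All levels below are normalized log2 intensities, and all differences are HET minus WT on the log2 scale unless another pair is named. The share of the 45281 probes that was detected ran from 39.27 to 43.72 percent, and 11076 genes had a probe detected on at least 3 of the 12 arrays. Mean unnormalized intensity was 347.0, 329.3 and 294.4 in HET 5, HET 6 and HET 7, and lay between 320.9 and 362.6 in WT, so HET 7 was the dimmest of the 8 arrays. The labelled tissue was checked against defining genes: 24 of 30 listed Sertoli genes and 20 of 23 listed germ cell genes were measured. Of 14 listed spermatid genes, 4 were measured. The probes of Prm1, Tnp2, Acrv1 and Akap4 were detected on 0 of the 8 arrays. Tnp1 and Spaca1 of the same list were detected on 5 WT and 3 HET arrays, and Odf1 on 3 WT and 2 HET arrays. For genes whose probe stayed at background, among them Pcna, Sycp3 and Dmrt1, nothing can be said. The number of arrays limits the precision of every difference.

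Rb1 itself, on chromosome 14, was read by 2 probes. The brighter probe read 9.19, 9.31, 9.04, 8.83 and 9.00 in WT 8 to WT 12 and 8.78, 9.15 and 9.19 in HET 5 to HET 7. Its groups overlapped, since HET 5 lay just below the lowest WT array and HET 6 and HET 7 lay among the WT arrays (difference -0.03, SE 0.16, limma adjusted p = 0.95). The dimmer probe read 7.68, 8.15, 7.88, 7.66 and 7.63 in WT and 7.31, 7.40 and 7.44 in HET. Here every HET array lay below every WT array, by a mean of -0.41 (SE 0.15, limma unadjusted p = 0.019, adjusted p = 0.47 over 20170 probes). The 4 KO arrays read 7.74, 7.33, 7.11 and 7.15 on that probe, so KO 1 lay among the WT arrays and the others at or below the HET arrays. The place of the probes relative to the floxed stretch was not analysed here, so neither probe checks the genotype labels.

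**Figure D1:**
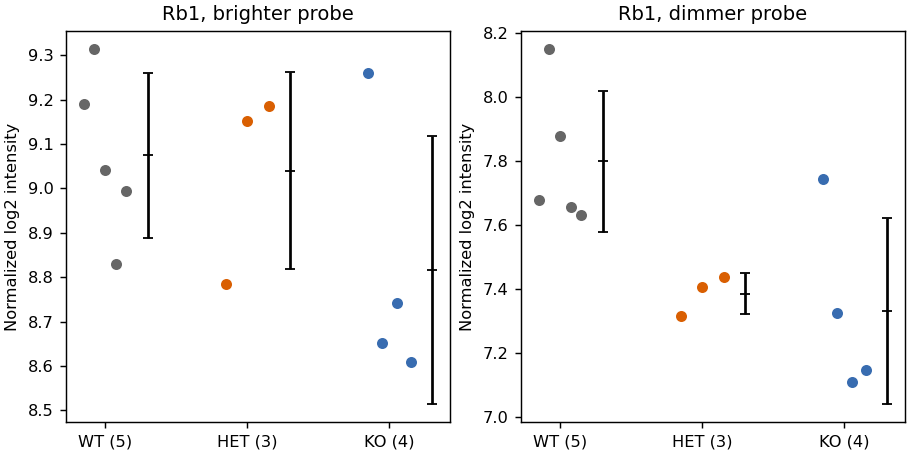
Normalized log2 intensity of the brighter (left) and dimmer (right) Rb1 probe, with 1 point per array for WT, HET and KO and the group mean ± SD beside the points; the 2 panels have different axes that do not start at 0. The HET arrays overlap WT on the brighter probe and lie between 7.31 and 7.44, below all 5 WT arrays, on the dimmer one.

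No gene passed the adjusted threshold. With 1 limma fit over all 12 arrays and Benjamini-Hochberg adjustment at 0.05, 0 of 11076 genes (0 percent) differed between HET and WT. At an unadjusted p below 0.05 there were 1082 genes (9.77 percent), where 554 would be expected at that threshold with no difference. With only the HET and WT arrays in the fit the count was 569, close to that number. The fit over 12 arrays takes 1 spread for all groups, while the median SD was 0.24 in HET, 0.15 in WT and 0.11 in KO. Its p-values for HET may therefore be too small. Of the 1082 genes, 407 (3.67 percent) were higher and 675 (6.09 percent) lower in HET. The split moved with the scaling: when arrays were scaled to a common median in place of quantile normalization, 149 genes were higher and 801 lower. Over all genes the median difference was -0.01, and -0.04 with median scaling. Groups did not overlap for 297 genes (2.68 percent): all 3 HET arrays lay above all 5 WT arrays for 113 genes (1.02 percent) and below them for 184 (1.66 percent). For the KO arrays against WT, in the same fit, 284 genes (2.56 percent) had an unadjusted p under 0.05. For KO against HET the corresponding count was 775 (7 percent) and 0 genes passed adjustment.

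The 3 HET arrays were unlike one another. HET 5 lay above all WT arrays for 14.24 percent of genes and below them for 10.31 percent. HET 6 lay above WT for 30.53 percent and below for 32.17 percent, and HET 7 for 18.48 and 28.15 percent. In the 4 KO arrays these shares were 12.65 to 15.19 percent above and 10.71 to 14.54 percent below, so HET 5 resembled a KO array in this respect while HET 6 and HET 7 stood further out. HET 6 and HET 7 differed from each other by at least 2-fold for 701 genes (6.33 percent), of which 471 (4.25 percent) were higher and 230 (2.08 percent) lower in HET 7, against 23 to 288 genes in the pairs of WT arrays and 45 to 82 in the pairs of KO arrays. The median SD within the group was 0.24 in HET, 0.15 in WT and 0.11 in KO, and the SD was larger in HET than in WT for 71.77 percent of genes. The genes with small p-values drew mainly on HET 6 and HET 7. Of the 407 higher genes, 393 lay above all WT arrays in HET 6 and 303 in HET 7, but 132 in HET 5. Of the 675 lower genes, 632 lay below all WT arrays in HET 6, 568 in HET 7 and 229 in HET 5.

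**Figure D2:**
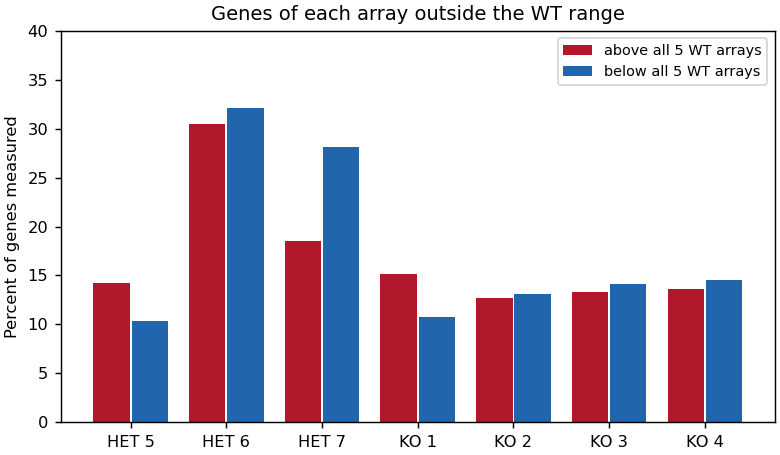
Percent of 11076 genes whose value on each HET and KO array lay above (red) or below (blue) all 5 WT arrays. HET 6 reaches 30.53 percent above and 32.17 percent below, while HET 5 stays near the KO arrays.

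The result over all genes turned on HET 5. Without that array, leaving 2 HET arrays, 173 genes (1.56 percent) passed an adjusted p of 0.05 in limma, 37 higher and 136 lower in HET. In 109 of those 173 genes HET 5 itself lay inside the WT range. It lay above all WT arrays for 4 of the 37 higher genes and below them for 23 of the 136 lower ones. In the rest of the 173 genes HET 5 lay outside the WT range on the opposite side. Those genes outnumbered the ones in which it lay outside on the called side. Without any other single array of the 8 the count was 0. HET 6 and HET 7 also carried the extreme values of the meiotic genes described below, and the part of that in these 173 calls was not tested.

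The 12 higher genes with the smallest p-values were led by Cbl. Cbl encodes a ubiquitin ligase that ends signalling by receptor tyrosine kinases. It read 5.69, 5.55, 5.29, 5.45 and 5.40 in WT 8 to WT 12 and 5.95, 6.06 and 6.06 in the HET arrays. All 3 HET arrays lay above WT, close to each other (difference 0.55, SE 0.12, unadjusted p = 0.00053 in limma, adjusted p = 0.50). Foxm1, the transcription factor that drives genes of G2 and mitosis, read 7.57, 7.51, 7.26, 7.35 and 7.47 in WT and 7.65, 8.03 and 7.79 in HET. The HET arrays again did not overlap WT, although HET 5 exceeded the highest WT array by little (0.39, SE 0.10, limma adjusted p = 0.50). Cdkn1b encodes p27, the CDK inhibitor that accompanies the end of Sertoli cell division. Its probe was dim, and it was detected on 1 of 5 WT and 3 of 3 HET arrays and on 1 KO array. It thus passed the detection filter only through HET, the group in which it is high, and its p-value is no support. It read 5.09, 4.82, 4.87, 4.87 and 4.82 in WT and 5.39, 5.05 and 5.52 in HET, so HET 6 fell inside the WT range (0.43, SE 0.12, limma adjusted p = 0.50). In KO, Cbl, Foxm1 and Cdkn1b differed from WT by 0.29, 0.24 and 0.20.

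Of the other higher genes, Ybx3, Rtf1, Rpp14, Klhl9, Socs7, Msto1 and Ccdc136 also had their lowest HET value in HET 5. Ybx3, a Y-box protein that binds DNA and messenger RNA, read 8.25, 8.34, 8.29, 8.34 and 8.19 in WT and 8.44, 8.92 and 8.96 in HET. Rtf1, a subunit of the Paf1 elongation complex, read 7.74, 7.43, 7.67, 7.60 and 7.42 in WT and 7.85, 8.45 and 8.06 in HET. In both genes HET 5 stood just above WT and HET 6 and HET 7 clearly above it (0.49, SE 0.12, and 0.55, SE 0.14, limma adjusted p = 0.50 for both). For Ybx3, 1 of 3 detected probes differed in the opposite direction. Rpp14, a subunit of ribonuclease P, read 9.05, 9.05, 9.15, 9.10 and 9.63 in WT and 9.74, 9.89 and 9.75 in HET. WT 12 stood apart from the other WT arrays and near the HET arrays (0.60, SE 0.16, limma adjusted p = 0.50). KO minus WT differences were 0.18 for Ybx3, 0.28 for Rtf1 and -0.06 for Rpp14. Klhl9, a substrate adaptor of a Cul3 ubiquitin ligase, Socs7, a suppressor of cytokine signalling, Msto1, a protein of mitochondrial distribution, and Ccdc136, a coiled-coil protein, were higher by 0.61, 0.42, 0.40 and 0.66, each with the 3 HET arrays above WT. Their KO minus WT differences were 0.20, 0.00, 0.03 and -0.05. Jmy, a cofactor of p53 that also nucleates actin, was not well above background on any WT array and was detected on all 3 HET arrays. The HET mean was at least 1.16-fold higher (WT mean 4.92, HET mean 5.35). Jmy was detected on 0 KO arrays, so it passed the detection filter only through the group in which it is high and had to differ; its p-value is no support. Car3, a carbonic anhydrase abundant in muscle and fat, read 5.78, 6.54 and 4.94 in HET against 4.36 to 5.18 in WT. It was detected on 1 WT, 2 HET and 1 KO arrays. Like Jmy, Car3 passed the filter only through HET, so its p-value is no support.

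Among the 12 lower genes, Prf1 and Uba6 had the largest differences. Prf1 encodes perforin, the pore-forming protein of cytotoxic lymphocytes. It read 9.17, 10.10, 9.53, 9.69 and 9.65 in WT and 9.06, 7.85 and 8.61 in HET, a difference of -1.12 (SE 0.23, limma adjusted p = 0.50). HET 5 was within 0.11 of the lowest WT array while HET 6 was the lowest. KO arrays differed from WT by -0.03. Of 17 cytotoxic and T cell genes 5 were measured, 2 higher and 3 lower. Cd3e, of the T cell receptor complex, was detected on 3 WT and 3 HET arrays (5.58, 5.73 and 5.93 in HET, 4.88 to 6.51 in WT), Cd3g and Nkg7 each on 2 WT arrays and 1 HET array, Cd3d on 1 and 2, and Il2rb on 1 and 1. The probes of Gzmb, Gzmk, Klrd1, Klrk1, Ncr1, Cd8a, Cd4, Cd2 and Cd5 were detected on 0 WT and 0 HET arrays. Uba6 encodes an activating enzyme for ubiquitin and the ubiquitin-like FAT10. It read 10.29, 11.53, 11.13, 11.47 and 11.79 in WT and 10.29, 9.82 and 9.81 in HET (-1.27, SE 0.28, limma adjusted p = 0.50). HET 5 and WT 8 were almost equal, and KO arrays differed from WT by -0.09.

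Smaller differences were measured for Atf4, Hes5, Cdh1, Dusp26 and Zfp760. Atf4, the transcription factor of the integrated stress response, read 9.14, 9.19, 9.34, 9.39 and 9.12 in WT and 8.89, 8.75 and 8.68 in HET (-0.46, SE 0.10). Hes5, a transcriptional repressor induced by Notch, read 5.57, 5.30, 5.51, 5.38 and 5.49 in WT and 4.86, 5.08 and 5.05 in HET (-0.46, SE 0.10). Neither gene had overlapping groups, and Hes5 was detected on 5 WT arrays and 1 HET array. Cdh1, E-cadherin, which marks early spermatogonia within the tubule, read 5.46, 5.37, 5.30, 5.37 and 5.19 in WT and 4.91, 5.02 and 4.83 in HET (-0.42, SE 0.09, limma adjusted p = 0.50 for all 3 genes). It was likewise detected on 1 HET array. KO minus WT differences were -0.28 for Atf4, -0.12 for Hes5 and -0.20 for Cdh1. Dusp26, a protein phosphatase, was not well above background on any HET or KO array, and its WT mean was at least 1.05-fold higher than that of HET (WT mean 5.15, HET mean 4.70). Like Jmy, it passed the filter only through the group in which it is high. Zfp760, a zinc finger protein, differed by -0.47, with HET values of 5.50, 5.45 and 5.44 under WT values of 5.78 to 6.06 and a KO minus WT difference of -0.30.

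The remaining lower genes were Ice2, a subunit of the little elongation complex (-0.58), Ttyh2, a member of the tweety family (-0.49), Zcchc17, an RNA-binding protein (-0.44), Snora70, a small nucleolar RNA (-0.39), and Tbata. Tbata takes its name from thymus, brain and testis and is listed here with the spermatocyte genes. It read 7.45, 7.70, 8.02, 7.78 and 7.65 in WT and 7.40, 6.91 and 6.68 in HET (-0.72, SE 0.17, limma adjusted p = 0.50). HET 5 was at the level of WT 8. The KO mean of Tbata exceeded the WT mean by 0.17 and the HET mean by 0.89 (KO against HET, limma unadjusted p = 0.00022). These 24 genes were picked for small p-values on the same arrays, so the order of their HET and WT arrays adds no support. None of them changed sign in any of the 20 or 21 alternatives, which reuse those arrays, so that adds no support either.

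**Figure D3:**
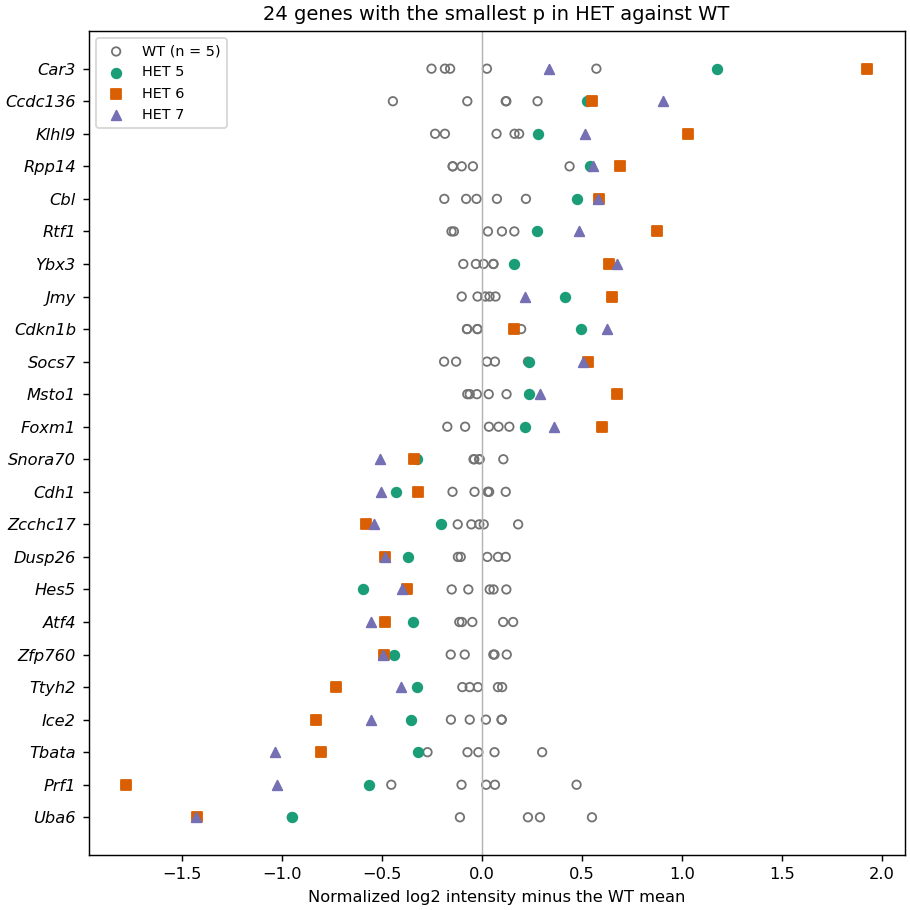
Difference of each WT (open circles) and HET array from the WT mean, in log2 units, for the 12 higher and 12 lower genes with the smallest p. HET 6 or HET 7 is the most distant array for most genes, and HET 5 usually lies nearest to WT.

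For the Rb and E2F network, the list mean of HET 6 (0.10) and HET 7 (0.16) lay above the WT range of -0.05 to 0.07, and that of HET 5 (0.02) within it. Of 37 listed genes 30 were measured, and 0 passed adjustment. A total of 18 were higher and 12 lower in HET, with a median of 0.09 against -0.01 over all genes. Over all genes 47.7 percent had a difference above 0. The activating E2Fs were close to WT: E2f1 differed by -0.02 (SE 0.12), E2f2 by 0.10 (SE 0.14) and E2f3 by -0.01 (SE 0.11). The related pocket protein gene Rbl1 differed by 0.13 (SE 0.17), and the probe of Rbl2 was detected on none of the 8 arrays. Beside Cdkn1b, whose p-value is no support, 1 more of the 30 members had an unadjusted p under 0.05, against 9.77 percent of all genes. This was Tfdp2, a DP partner of E2F, which read 8.59, 8.72, 8.62, 8.76 and 8.80 in WT and 8.58, 8.38 and 8.49 in HET (-0.22, SE 0.09) on its brightest probe. Of its 6 detected probes, 3 differed in the opposite direction. Lin54, the DNA-binding subunit of the DREAM complex, differed by 0.19, and its other probe had the opposite sign. Cyclin D1 (Ccnd1) read 10.30, 9.23 and 10.28 in HET against 10.17 to 10.50 in WT, so its mean difference of -0.35 came from HET 6. Rbbp7, a histone-binding partner of Rb, showed the reverse: HET 6 read 12.57, while HET 5 (11.20) and HET 7 (11.36) lay within the WT range of 10.77 to 11.48.

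Of 52 listed E2F targets of G1/S and DNA replication, 43 were measured, 17 higher and 26 lower, with a median of -0.08, and 0 passed adjustment. At an unadjusted p under 0.05, 1 gene was higher and 1 lower, against 3.67 and 6.09 percent of all genes. Mcm2, a subunit of the replicative helicase, read 10.32, 10.33, 10.04, 10.26 and 10.08 in WT and 10.39, 10.64 and 10.33 in HET (0.24, SE 0.10). Rfc4, a subunit of the clamp loader, read 7.49, 7.96, 8.00, 7.75 and 7.82 in WT and 7.72, 7.25 and 7.47 in HET (-0.32, SE 0.14, limma adjusted p = 0.50 for both). Both overlapped WT. The helicase subunits Mcm3, Mcm4 and Mcm6 differed by 0.22, 0.20 and 0.22, with HET 6 the highest of the 8 arrays for all of them (10.03, 12.00 and 11.34). The list mean was 0.05 in HET 5, -0.09 in HET 6 and -0.06 in HET 7, where the WT arrays spanned -0.07 to 0.09. The sign of the list's median was positive without HET 6 (0.03) and with array weights (0.03).

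Cdc6 and Gins3 were the members with the smallest p-values whose 200 bases upstream of the transcription start hold an E2F motif, and these are printed because Rb acts at such sites. The motif was searched as TTTCCCGC, TTTCGCGC, TTTGGCGC or TTTGCCGC on both strands; matches are in capitals, and the sequences come from RefSeq, GRCm38.p6.
Cdc6, chr11:98907951-98908150, plus strand: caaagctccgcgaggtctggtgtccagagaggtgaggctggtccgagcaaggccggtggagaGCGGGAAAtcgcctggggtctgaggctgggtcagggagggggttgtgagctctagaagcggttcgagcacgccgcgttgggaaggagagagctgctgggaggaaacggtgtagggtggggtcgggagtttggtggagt
Gins3, chr8:95633359-95633558, plus strand: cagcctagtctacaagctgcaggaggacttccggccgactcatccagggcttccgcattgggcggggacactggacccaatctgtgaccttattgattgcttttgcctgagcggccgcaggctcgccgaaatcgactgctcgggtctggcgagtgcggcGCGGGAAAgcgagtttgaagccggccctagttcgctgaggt
Of the 36 list members in the promoter table, 10 (27.8 percent) held such a motif in the 250 bases before a start, against 583 of all 27025 genes (2.16 percent). The members were listed as E2F targets, so a higher share was built into the choice and says nothing of HET against WT. Cdc6, which loads the helicase at origins, read 6.53, 6.50, 6.84, 6.48 and 6.62 in WT and 6.43, 6.48 and 6.30 in HET. Gins3, a subunit of the GINS complex of the replication fork, read 6.74, 6.66, 6.75, 6.43 and 6.74 in WT and 6.57, 6.51 and 6.30 in HET. The differences of -0.19 (SE 0.10) and -0.20 (SE 0.11) did not pass adjustment (limma adjusted p = 0.51 and 0.52), and both genes overlapped WT.

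For G2/M and mitosis, 23 of 33 genes were measured, 15 higher and 8 lower, with a median of 0.07. Foxm1 was the only member with an unadjusted p under 0.05, where 9.77 percent of all genes had one. Kif23, a kinesin of the central spindle, and Prc1, a microtubule bundler of the same structure, differed by 0.25 (SE 0.13, 1 of 3 detected probes opposite) and 0.22 (SE 0.11). Top2a, the topoisomerase of dividing cells, read 10.87, 11.18 and 11.15 in HET, inside the WT range of 10.72 to 11.23.

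**Figure D4:**
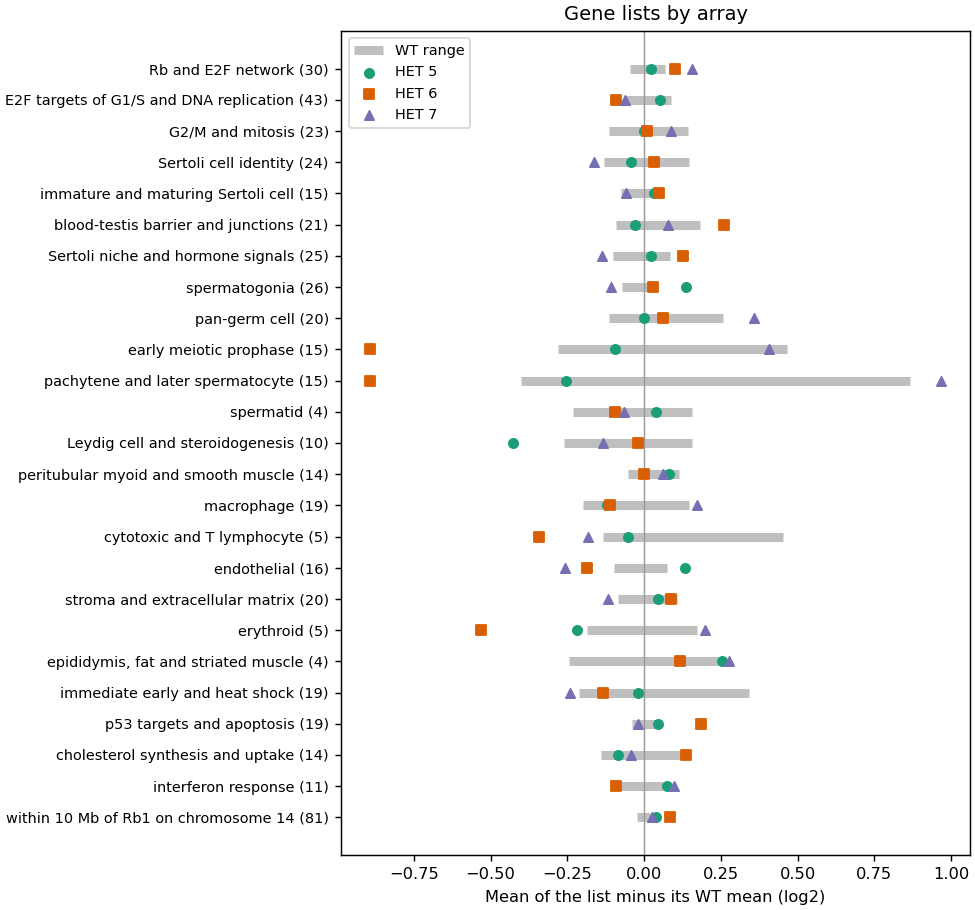
Mean of each gene list on HET 5, HET 6 and HET 7 relative to its WT mean (log2), with the range of the 5 WT arrays as a grey bar and the number of measured genes in parentheses. Most HET points lie within or near the WT range, and the meiotic lists separate HET 6 (-0.89) from HET 7 (0.41 and 0.97).

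Sertoli cell identity genes were measured for 24 of 30 members, of which 11 were higher and 13 lower, with a median of -0.03 and 0 past adjustment. Sox9, the transcription factor that sets Sertoli fate, read 12.60, 12.90, 12.98, 12.83 and 12.56 in WT and 12.76, 13.02 and 12.54 in HET, a difference of 0.00 (SE 0.13). Amh, whose promoter drives the Cre, read 8.78, 9.80, 9.49, 9.44 and 8.53 in WT and 9.20, 9.21 and 8.18 in HET (-0.35, SE 0.29). The Amh levels in both groups spanned more than 1 log2 unit, and HET 7 was the lowest. Fshr, the receptor of follicle-stimulating hormone, differed by 0.20 (SE 0.18). Trf, the transferrin secreted by maturing Sertoli cells, read 7.36, 7.42, 7.32, 7.27 and 7.61 in WT and 7.71, 7.94 and 7.73 in HET. Its groups did not overlap (0.40, SE 0.14, limma adjusted p = 0.50). Defb36, a beta-defensin of Sertoli cells, read 12.38 in HET 6 while every other array of the 8 lay between 13.16 and 13.37. Rhox5, an androgen-induced homeobox gene, and Hsd17b1, an oestradiol-forming enzyme, differed by -0.50 (SE 0.25) and -0.49 (SE 0.34).

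In the list of immature and maturing Sertoli cells, 10 of 15 measured genes were higher and 5 lower. Cdkn1b and Trf, both higher, had an unadjusted p under 0.05, against 3.67 percent of all genes. The median of the list, 0.04, became -0.03 when arrays were scaled to a common median. Ncam1, an adhesion molecule of immature Sertoli cells, read 5.91, 5.73 and 5.01 in HET against 5.71 to 6.41 in WT, so HET 7 alone lay below WT. The intermediate filament gene Vim read 11.91, 12.62 and 11.41 in HET, and HET 6 alone lay above the WT range of 11.29 to 11.93. Of 25 measured niche and hormone signals, 12 were higher and 13 lower, and 0 had an unadjusted p under 0.05, against 9.77 percent of all genes. Aldh1a2, a retinoic acid-synthesising enzyme, read 8.14, 8.11, 7.24, 7.18 and 8.54 in WT and 8.03, 8.62 and 8.74 in HET (0.62, SE 0.29, limma adjusted p = 0.50). Cxcl12, the chemokine that attracts spermatogonia, differed by -0.34 on its brightest probe and by 0.05 when its probes were averaged. Inha, the inhibin alpha subunit, read 12.41, 12.60, 12.43, 12.44 and 12.29 in WT and 12.37, 12.98 and 12.70 in HET. Its difference of 0.25 (SE 0.12) was 0.10 without HET 6 and 0.41 without HET 5.

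Of 21 measured genes of the blood-testis barrier and junctions, 13 were higher and 8 lower, with a median of 0.12 that was -0.03 without HET 6. With an unadjusted p under 0.05, 2 were higher and 2 lower, against 3.67 and 6.09 percent of all genes. Nectin3, an adhesion molecule between Sertoli cells and germ cells, read 9.95, 9.80, 9.85, 9.72 and 9.96 in WT and 9.89, 10.17 and 10.27 in HET (0.26, SE 0.10). Jam3, a junctional adhesion molecule, was detected on 3 WT arrays and on 0 HET and 0 KO arrays, so it too passed the filter only through WT. Its WT mean was at least 1.04-fold higher than that of HET (5.14 and 4.84).

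Germ cell genes differed among the 3 HET arrays. Among 26 measured spermatogonial genes, 12 were higher and 14 lower, with a median of -0.01. Of these, 4 were higher and 2 lower at an unadjusted p under 0.05, against 3.67 and 6.09 percent of all genes. No overlap with WT was seen for 3 of them above and 1 below (1.02 and 1.66 percent of all genes). Zbtb16, the transcription factor of undifferentiated spermatogonia, read 7.08, 7.07, 7.16, 7.05 and 6.68 in WT and 7.32, 7.46 and 7.29 in HET. Rarg, a retinoic acid receptor that prepares spermatogonia for differentiation, read 6.51, 6.52, 6.17, 6.30 and 6.25 in WT and 6.59, 6.72 and 6.71 in HET. In both genes all HET arrays lay above WT (0.35, SE 0.11, and 0.33, SE 0.10, limma adjusted p = 0.50), while Cdh1 of the same list lay below. For Rarg, 1 of 3 detected probes had the opposite sign. Of 20 pan-germ cell genes 14 were higher and 6 lower, with a median of 0.16. An unadjusted p under 0.05 was reached by 2 of the higher and 1 of the lower ones. Ddx4, the RNA helicase of all germ cells, read 7.69, 7.07, 7.45, 7.20 and 7.30 in WT and 7.40, 8.23 and 8.09 in HET (0.57, SE 0.19). Rnf17, a protein of germ cell granules, differed by 0.63 (SE 0.18). For both genes HET 5 lay inside the WT range and HET 6 and HET 7 above it. Tex11, an X-linked meiotic gene, differed by -0.30 (SE 0.11), with HET values of 8.66, 8.41 and 8.55 under WT values of 8.71 to 9.07.

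Genes of early meiotic prophase were lower in HET for 13 of 15 measured members, with a median of -0.18, but the 3 arrays did not share this. Relative to WT, the list mean was -0.09 in HET 5, -0.89 in HET 6 and 0.41 in HET 7, and WT 12 stood at 0.46. Without HET 6 the median was 0.19. Rec114, needed for meiotic double-strand breaks, was the only member with an unadjusted p under 0.05 (-0.40, SE 0.18, limma adjusted p = 0.50, -0.15 without HET 6 and -0.63 without HET 5). Over all genes 9.77 percent had such a p. Syce3, a component of the central element of the synaptonemal complex, read 11.44, 11.22, 11.04, 11.03 and 11.95 in WT and 11.32, 9.08 and 11.74 in HET. HET 6 thus lay 1.96 below the nearest of the other 7 arrays while HET 7 was second only to WT 12. Spo11, which makes the breaks, read 8.65, 7.81 and 9.73 in HET, and Meiob, which acts in their repair, read 8.61, 7.44 and 9.98.

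Pachytene and later spermatocyte genes spread further. Of 15 measured members 8 were higher and 7 lower, with a median of 0.01. The list mean was -0.25 in HET 5, -0.89 in HET 6 and 0.97 in HET 7, and WT 12 stood at 0.87 while the other WT arrays lay between -0.40 and -0.10. Tekt1, a tektin of the sperm flagellum, read 5.90, 5.21, 5.61, 5.59 and 7.47 in WT and 5.60, 5.56 and 8.14 in HET. Hspa2, the heat shock protein of spermatocytes, read 11.98, 11.64, 11.79, 11.58 and 12.77 in WT and 11.74, 11.55 and 12.98 in HET. In each, HET 7 and WT 12 were high and the other arrays lay together. Between the single arrays HET 7 and HET 6, 10 of 15 pachytene genes and 8 of 15 early meiotic genes were at least 2-fold higher in HET 7, against 4.25 percent of all genes, with medians of 1.96 and 1.26. The Sertoli identity list differed between the same arrays by a median of -0.23 and the E2F target list by -0.01. The part of these levels in the differences of other genes was not tested as a cause. With the mean of both meiotic lists as a covariate, 0 genes passed adjustment and 1459 had an unadjusted p under 0.05.

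The upstream sequences of Syce3 and Piwil1 are printed as examples from these lists, since the MYB family member Mybl1 is a known activator of pachytene genes. A part of Mybl1 in the levels of these genes was not tested. The motif was searched as TAACNG or CAACNG on both strands, and matches are in capitals (RefSeq, GRCm38.p6, 200 bases before the start; Syce3 has 2 annotated starts, of which the one nearer to its gene body is shown).
Syce3, chr15:89410264-89410463, minus strand: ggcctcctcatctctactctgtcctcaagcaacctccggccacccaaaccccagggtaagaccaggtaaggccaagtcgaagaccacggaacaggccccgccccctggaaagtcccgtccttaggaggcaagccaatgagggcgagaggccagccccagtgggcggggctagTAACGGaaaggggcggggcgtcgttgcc
Piwil1, chr5:128736046-128736245, plus strand: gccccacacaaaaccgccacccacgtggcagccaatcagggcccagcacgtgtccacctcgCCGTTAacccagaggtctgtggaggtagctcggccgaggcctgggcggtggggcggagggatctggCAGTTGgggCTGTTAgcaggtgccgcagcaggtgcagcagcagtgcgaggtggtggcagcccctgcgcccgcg
Such a short motif is common: 12560 of 27025 genes (46.5 percent) held it in the 250 bases before a start, against 7 of 13 early meiotic genes (53.8 percent) and 9 of 12 pachytene genes (75.0 percent) in the table. Piwil1, the piRNA-binding Argonaute of spermatocytes, read 7.76, 7.21, 7.78, 7.62 and 9.98 in WT and 7.73, 6.51 and 10.56 in HET. Its difference between the groups was 0.20 with an SE of 0.75, since HET 6 was the lowest and HET 7 the highest of the 8 arrays.

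Among the interstitial cell types, Leydig genes were lower for 8 of 10 measured members, with a median of -0.17 and 0 past adjustment. An unadjusted p under 0.05 was reached by 2 of the lower ones, against 6.09 percent of all genes. Insl3, the hormone of testicular descent, read 10.56, 10.72, 10.98, 10.57 and 10.63 in WT and 10.32, 9.90 and 10.41 in HET (-0.48, SE 0.15, limma adjusted p = 0.50). All HET arrays lay below WT. Hsd17b3, which makes testosterone from androstenedione, read 8.01, 8.13 and 7.49 in HET against 8.01 to 8.60 in WT (-0.43, SE 0.16). Cyp17a1, an enzyme of androgen synthesis, read 12.64, 11.64, 11.61, 9.73 and 11.80 in WT and 9.46, 12.22 and 11.94 in HET. HET 5 and WT 11 were low for it, and the HET minus WT difference of -0.28 had an SE of 0.72. The list mean was -0.43 in HET 5, -0.02 in HET 6 and -0.14 in HET 7, so the array lowest for the meiotic lists was the HET array nearest to WT here.

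Peritubular and smooth muscle genes split evenly, 7 higher and 7 lower of 14, with a median of 0.02 that was -0.05 with median scaling. Of the 14, 2 were higher and 0 lower at an unadjusted p under 0.05 (3.67 and 6.09 percent of all genes). Mylk, myosin light chain kinase, read 12.79, 12.87, 12.92, 12.91 and 12.80 in WT and 12.95, 13.48 and 13.12 in HET, all above WT (0.33, SE 0.11, and 0.18 without HET 6). This holds for its brightest probe alone, since the other 2 of its 3 detected probes differed in the opposite direction. Lmod1, a leiomodin of smooth muscle, was also above WT in all 3 HET arrays (0.35, SE 0.11, limma adjusted p = 0.50 for both). Of 16 endothelial genes 4 were higher and 12 lower (median -0.13), with list means of 0.13 in HET 5, -0.19 in HET 6 and -0.26 in HET 7. Without HET 5 the median was -0.22, and without WT 12, HET 6 and HET 7 it was 0.10. Of 19 macrophage genes 6 were higher and 13 lower, and 1 and 2 of these had an unadjusted p under 0.05. Aif1, a macrophage calcium-binding protein, lay below WT in all HET arrays (-0.37, SE 0.14), and Cx3cr1, a chemokine receptor, was higher by 0.33 (SE 0.13). Of 20 matrix genes 10 were higher and 10 lower, with Col3a1 at -0.46 on its brightest probe and 0.00 over the mean of its probes.

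Of the markers of tissues outside the tubule, 5 erythroid genes had a median of -0.11. Alpha-globin (Hba-a1) read 12.96, 12.16 and 13.63 in HET against 13.10 to 13.69 in WT, so HET 6 was lowest. Of 20 genes of epididymis, fat and striated muscle, 4 were measured. Adipoq, the fat hormone adiponectin, read 5.99, 5.23 and 5.30 in HET and 4.75, 4.72, 5.48, 4.59 and 4.52 in WT. Its probe was above background on 3 of 3 HET and 1 of 5 WT arrays and on 1 KO array. Adipoq thus passed the filter only through HET, where it is high, and its difference is no support. The probes of the other fat genes Fabp4, Plin1 and Lep were detected on none of the 8 arrays. The part of fat tissue in the Car3 values was not tested.

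Stress and signalling lists showed small differences. Of 19 immediate early and heat shock genes 4 were higher and 15 lower (median -0.15), and 0 had an unadjusted p under 0.05 (9.77 percent of all genes). Of 19 p53 targets and apoptosis genes 15 were higher and 4 lower (median 0.11, and 0.02 without HET 6). An unadjusted p under 0.05 was reached by 2 of the higher and 1 of the lower ones. Phlda3, a p53 target that restrains Akt, read 8.82, 8.51, 8.77, 8.59 and 8.63 in WT and 8.82, 8.92 and 9.10 in HET (0.28, SE 0.10). Sesn2, a sestrin, differed by 0.49 (SE 0.20), and by 0.27 without HET 7, and Plk2, a polo-like kinase, by -0.46 (SE 0.20). Of 14 cholesterol genes 6 were higher and 8 lower, and 1 in each direction had an unadjusted p under 0.05. Hsd17b7, an enzyme of cholesterol synthesis, lay below WT in all 3 HET arrays (-0.33, SE 0.11), while Insig1, a sterol sensor, read 7.97, 7.34, 7.62, 7.81 and 7.11 in WT and 7.59, 8.45 and 8.03 in HET. Its difference of 0.45 (SE 0.21) was 0.24 without HET 6, and 1 of its 3 detected probes had the opposite sign. Of 11 interferon genes 6 were higher and 5 lower, with a median of 0.00, and Irf9 differed by 0.28 (SE 0.12), and by 0.12 without HET 6. None of these genes passed adjustment (limma adjusted p = 0.50 for each gene named in this paragraph).

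Around Rb1 on chromosome 14, 133 RefSeq genes with a probe on the array lie wholly or partly within 10 Mb, and 81 were measured. Of these 46 were higher and 35 lower, with a median of 0.05 and list means of 0.04, 0.08 and 0.03 in HET 5 to HET 7, where WT spanned -0.02 to 0.02. KO 1 to KO 4 had list means of 0.037, 0.020, 0.022 and -0.029, and the highest WT mean was 0.019. An unadjusted p under 0.05 was reached by 6 higher and 2 lower genes, against 3.67 and 6.09 percent of all genes. Slc25a30, a mitochondrial carrier, read 7.61, 7.57, 7.72, 7.68 and 7.49 in WT and 7.69, 8.92 and 8.51 in HET (0.76, SE 0.22, limma adjusted p = 0.50). HET 5 was at the WT level and HET 6 and HET 7 well above it. Wbp4, a splicing factor, lay below WT in all 3 HET arrays (-0.25, SE 0.09).

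A difference of at least 2-fold was seen for 21 genes (0.19 percent), and groups did not overlap for 3 of them, Gfpt1, Prf1 and Uba6. Of the 21, 12 were genes whose values fell into 2 levels, with a gap of at least 1.5 log2 units and at least 2 arrays on each side. Over all genes there were 50 of this kind. These 21 genes, apart from those named above, were chosen after their values were seen. Gfpt1, the first enzyme of hexosamine synthesis, on chromosome 6, read 5.50, 5.31, 5.71, 8.90 and 5.82 in WT and 9.77, 8.97 and 9.27 in HET (3.09, limma adjusted p = 0.50). WT 11, KO 2 and KO 3 were at the high level too, so the high level was not particular to HET. Mxd1, a transcriptional partner of Max, also on chromosome 6 with 7 genes starting between it and Gfpt1, was high on the same 6 arrays (6.41 to 7.38, against 4.61 to 4.93).

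Other genes of this kind came in further patterns. F11r, a junctional adhesion molecule, Fcer1g, an Fc receptor chain, and Uap1, an enzyme of the same hexosamine pathway, all on chromosome 1, were high in WT 10, HET 6, HET 7, KO 1 and KO 2. F11r read 5.67, 8.37 and 8.96 in the HET arrays and 8.65 in WT 10, against 5.63 to 5.86 in the other WT arrays. Sspn and Clec12b, on chromosome 6, were both high in WT 9, HET 5, HET 7 and KO 2, and Sspn in WT 8 as well. Psmd8, a proteasome subunit on chromosome 7, read 6.14, 9.37 and 5.73 in HET and 9.85, 9.72, 5.90, 6.04 and 9.86 in WT. HET 6 and 3 WT arrays were at its upper level. Their group differences, 1.36 for F11r, 2.19 for Uap1, 2.09 for Clec12b and -1.19 for Psmd8, therefore reflect how many arrays of each group were at either level. The source of the levels was not tested. F11r and Fcer1g are members of the barrier and macrophage lists and gave the highest differences there.

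**Figure D5:**
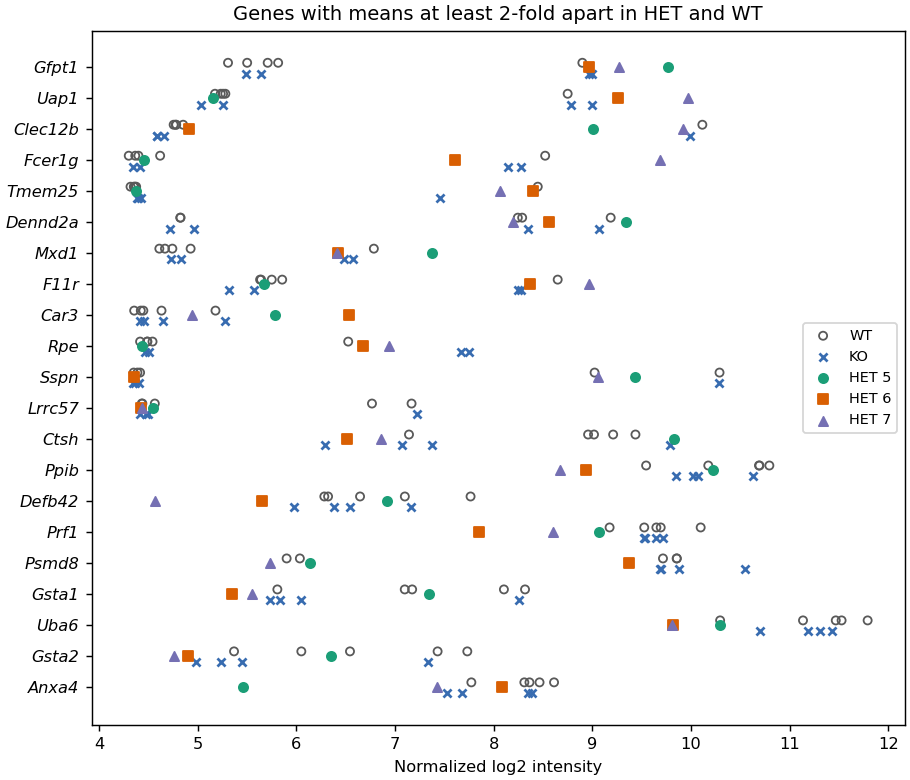
Normalized log2 intensity of the 21 genes whose HET and WT means differ by at least 2-fold, with WT as open circles, KO as crosses and each HET array marked (the axis does not start at 0). Genes such as Gfpt1 and Uap1 show 2 separate levels that HET, WT and KO arrays share, while Prf1 and Uba6 show a continuous spread.

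Single HET arrays also carried genes that no other HET or WT array shared. In HET 6, 17 genes lay at least 1 log2 unit above and 110 below all other 7 arrays. In HET 7 there were 7 and 3, in HET 5 0 and 1, and in WT 12 3 and 5. Sema5a, a semaphorin, read 5.66 in HET 6 and 8.56 to 9.75 in the others, and Snhg18, a small nucleolar RNA host gene, read 7.12 against 9.81 to 10.57. Both lie on chromosome 15 with 1 gene starting between them. The single HET 5 gene was Anxa4, an annexin, at 5.46 against 7.42 to 8.61. Fmr1nb, an X-linked gene of the germline, read 7.71 in HET 6 and 9.54 to 10.75 elsewhere. In HET 7, Ptprv read 9.25 against 10.83 to 11.18, Prok2, a prokineticin, 7.91 against 5.04 to 6.69, and Defb42, a beta-defensin, 4.57 against 5.65 to 7.77. HET 6 above the rest included Srpr, the receptor of the signal recognition particle (8.29 against 5.68 to 6.18), and Igfbp3, an insulin-like growth factor binding protein (9.54 against 7.26 to 8.32).

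A further division ran through all groups. Columns of the unnormalized table carry a number each. The 6 arrays with the lower numbers (WT 8, WT 9, HET 5, HET 6, KO 1 and KO 2) read 6.79 to 7.63 for the Y-linked gene Eif2s3y, and the other 6 read 4.36 to 4.45. No source used here explains these numbers. With this division as a block, 0 genes passed adjustment in limma, while 371 genes were higher and 654 lower at an unadjusted p under 0.05, 1025 together. Within the lower-numbered arrays the early meiotic list mean differed by -0.52 between HET and WT, and within the others, where HET 7 was the only HET array, by 0.42. The corresponding values were -0.32 and 0.80 for the pachytene list, -0.36 and -0.05 for the Leydig list, and 0.02 and 0.18 for the Rb and E2F network.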

How the data were processed

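The 12 samples of whole-testis RNA were hybridised to Illumina MouseWG-6 v2 BeadChips. The deposited unnormalized table holds bead-averaged intensity (linear scale) beside detection p-value columns for 45281 probes, per the file headers. The authors' deposited processed intensity values equalled a quantile normalization of these to within 4.87e-08 percent and were used as an alternative. No source used here names the scanner software.

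Analysis used R 4.3.3 with limma 3.58.1 and the data.table package (1.17.8), and plots used Python 3.11.15, pandas 2.3.3 and matplotlib 3.10.9. Intensities were background-corrected by normexp from the detection p-values (offset 16), quantile normalized and taken to log2. The filter kept 20170 probes, those with a detection p below 0.05 on 3 or more arrays. Of all probes, 34885 had 1 gene symbol in the platform annotation, 18 several and 10378 none, and those without 1 symbol were left out. Each gene took its detected probe with the highest mean, and 11 of the 92 genes made up of Rb1, the 24 smallest-p genes and the list members chosen below had another detected probe of opposite sign. One fit (lmFit, eBayes) covered all 12 arrays with 3 group means, with Benjamini-Hochberg adjustment over 11076 genes. Lists are described by counts and medians only. The named genes were Rb1, the 12 higher and 12 lower genes with the smallest p, the 3 smallest-p members of each list, and the 4 genes furthest above and below the other arrays for each HET array. Clone-style names (Riken, Gm and the like) were left out. The alternatives were run on those 92 genes, on the list medians and on the gaps of the array-specific genes. Other members are named for their role and were not rerun singly. The members, the 25 lists and these rules were chosen with earlier results of these data known. The procedure was tested on simulated data, with residuals shuffled across the 12 arrays. The larger spread was then not tied to HET, so that test cannot show how the fit handles it.

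Alternatives were no background correction, the authors' values, median scaling, an offset of 50, no filter on dim probes, a stricter one (detection p under 0.01 on all arrays of any group), averaging the probes of a gene, only HET and WT arrays, a trended robust prior, array weights, the number block, a meiotic covariate, the omission of WT 12, HET 6 and HET 7 together, and each HET and WT array left out in turn. Testing each detected probe singly was added after seeing the data.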

Additional observations from a re-analysis of the deposited data

Results flagged for a closer look

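In 11 of 117 checks of the 5 WT arrays (92 genes and 25 list means), 1 array lay further from its neighbours than Dixon's limit allows. Chance alone does this for about 1 in 20 groups. WT 12 was the distant array in 8 of the 11.

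WT 12 was high for Rpp14 (9.63, against 9.05 to 9.15 in the other WT arrays) and Dnajb1 (11.6, against 11.3 to 11.4), a heat shock co-chaperone. It was low for the spermatogonial gene Zbtb16 (6.68, against 7.05 to 7.16) and for the small heat shock protein gene Hspb1 (8.89, against 9.56 to 9.75). Its list means relative to the WT mean were 0.866 for pachytene and later spermatocyte genes (others -0.40 to -0.10), 0.256 for pan-germ cell genes (others -0.11 to -0.01), -0.0727 for spermatogonia (others 0.01 to 0.04) and 0.451 for cytotoxic and T lymphocyte genes (others -0.13 to -0.07). These values entered the WT means that HET was compared with, and their part in the differences was not tested beyond leaving WT 12 out.

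WT 10 was high for Adipoq (5.48, against 4.52 to 4.75) and for Snora70 (5.73, against 5.58 to 5.61). WT 8 was high for Cdkn1b (5.09, against 4.82 to 4.87), and it was the 1 WT array on which that probe was detected.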

How the results depend on the processing

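No paired analysis was possible because the replicate numbers in the labels do not recur between groups. The count of genes past adjusted p 0.05 was 0 in every alternative except without HET 5, where it was 173 (range 0 to 173 with each array left out in turn). The cause was not tested, beyond the counts of HET 5 values given in the report.

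The count at an unadjusted p under 0.05 was 1082. It was 569 with only HET and WT arrays, 245 with array weights, 369 without WT 12, HET 6 and HET 7, and 2109 of 20170 probes when each detected probe was tested singly, a choice made after seeing the data. With each array left out in turn it ran from 466 (without HET 6) to 2606 (without HET 5), with 717 without WT 11 and 1785 without HET 7. The share of higher genes among them was 37.6 percent, 15.7 percent with median scaling, 27.8 percent with array weights and 57.5 percent without WT 12, HET 6 and HET 7.

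The brighter Rb1 probe turned from -0.03 to 0.0257 without WT 9 and to 0.0936 without HET 5. Without WT 12, HET 6 and HET 7, which leaves HET 5 as the lone HET array and assumes that it varies like the other groups, 16 named genes changed sign: Inha (-0.104), Mei1 (0.000456), Tex101 (0.0422), Tnp1 (0.298), Tpm2 (0.0864), Fcgr3 (0.0717), Nkg7 (0.109), Egfl7 (0.0713), Ramp2 (0.0206), Icam2 (0.218), Cst11 (0.000817), Myl1 (-0.166), Hspa1b (-0.166), Hspb1 (0.032), Dnajb1 (-0.00686) and Insig1 (-0.0973). With the mean of a gene's probes Cxcl12 became 0.05 and Col3a1 0.000136. With array weights Tex101 became 0.0227 and Odf1 -0.0264. Without HET 6 Mei1 became 0.0123, Tex101 0.183, Odf1 -0.00285 and Spaca1 0.025. Odf1 (0.04 in the main analysis) was -0.00186 without WT 9 and -0.00762 without HET 5. Spaca1 (-0.03) was 0.00762 with the number block, 0.00284 with the meiotic covariate, 0.00828 without WT 9, 0.0144 without WT 12 and 0.108 without HET 5. With each array left out in turn, the values furthest from those came without HET 7: -0.107 for Rb1, -0.379 for Mei1, -0.906 for Tex101, 0.12 for Odf1 and -0.226 for Spaca1. None of these values passed adjustment, and the cause was not tested. None of the other genes among the 92 that were rerun (Rb1, the 24 smallest-p genes and 3 members per list) changed sign. Apart from Rb1 these were picked for small p-values on the same arrays, so a stable sign adds no support. Genes named only for their role were not rerun. The difference moved by over 1.5 times for 19 of the 92 genes without HET 5, for 31 without HET 6 and for 24 without HET 7.

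Limits: 3 HET arrays, of which HET 6 and HET 7 stood apart; probes at background say nothing of their genes; and 10378 probes had no symbol.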
